A study of Mus musculus with 6 samples.

Results

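The axon guidance ligands and receptors were described in W-EGFP cells, interstitial cells of the mouse fetal testis from FLE-EGFP animals at E16.5. They were chosen by gene symbol alone: the Slit, Robo, semaphorin, plexin, neuropilin, Eph, ephrin, netrin and Unc5 families, which gave 68 of the 24413 gene rows in the deposited table. The 68 comprised 35 ligands (3 Slits, 20 semaphorins, 8 ephrins and 4 netrins) and 33 receptors (4 Robos, 9 plexins, 2 neuropilins, 14 Eph receptors and 4 Unc5 genes). RNA was sequenced from 3 samples exposed to SAG, the Smoothened agonist, at 0.5 µM for 1 hour, and from 3 samples exposed to the vehicle DMSO for the same time. Each sample held 10000 cells, and all 6 carried the FLE-EGFP reporter, in which a fetal Leydig enhancer of Nr5a1 drives EGFP. The column names of both groups also contain "siCnt", which the sample labels do not explain. The comparison asks which transcripts differ when Hedgehog signalling is activated at Smoothened.

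Axon guidance proteins steer growing axons and are used again by migrating cells, blood vessels and epithelia. Slits are large secreted ligands that usually repel cells through Robo receptors. Class 3 semaphorins are secreted and bind a neuropilin that associates with an A-type plexin, while class 4 to 6 semaphorins span the membrane and bind plexins directly. Ephrin A ligands are tethered by a lipid anchor and ephrin B ligands by a transmembrane segment, and both bind Eph receptor tyrosine kinases on the neighbouring cell. Netrin 1 is a secreted cue that attracts through Dcc and repels through Unc5 receptors.

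The SAG libraries held 7694479 to 8804335 reads and the DMSO libraries 18486396 to 25491259, so sequencing depth and treatment cannot be told apart. Spike-in reads were present in every SAG library (54 to 1205) and at 0 in every DMSO library. Whatever difference in handling lies behind this cannot be told apart from treatment either. SAG replicate 3 stood apart from the other 5 libraries in its share of ribosomal RNA (1.67% of reads on Rn45s, against 0.326% to 0.360%). Over the tested genes, the median absolute deviation from the group mean on the log2 scale was 0.120, 0.145 and 0.197 in SAG. In DMSO it was 0.0608 to 0.0627. The main test takes the same variance for both groups. Gli1, a direct Hedgehog target used to check the labels, had a signal of 32.6, 46.3 and 30.8 in SAG and 0.704, 0.324 and 0.846 in DMSO. Ptch1, the Hedgehog receptor gene and also a target, had 42.7, 49.4 and 26.8 in SAG and 11.6, 16.1 and 13.2 in DMSO. The signal is the authors' scaled CPM, in which 1 read is worth 0.106 to 0.128 in SAG and 0.0414 to 0.0564 in DMSO. Values after ± give the SD (n = 3 libraries). The labels do not tell whether replicates came from different animals or cultures; the p-values therefore rest on sample-to-sample spread that could be technical.

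Of the 68 genes, 56 had a mean signal of at least 1 and were tested, and 30 of these were called by limma (Benjamini-Hochberg adjustment over all genes, threshold 0.05). Among them 17 rose and 13 fell with SAG, which is 53.6% of the 56. Over all 12550 genes tested, 29.6% were called, 12.9% higher and 16.6% lower. The groups did not overlap for 40 of the 56 tested members (71.4%) and for 48% of all genes tested, and they did not overlap for any of the 30 called members. The median log2 fold change was 0.15 over the tested members and -0.03 over all genes tested. Ligands gave 13 of the 17 increases and 6 of the 13 decreases, receptors the other 4 and 7. Without DMSO replicate 1, 2 receptors rose. Without DMSO replicate 1, 11 members rose and 12 fell, and without SAG replicate 3, 19 rose and 17 fell, with 29 of the 30 calls kept and Efnb3 under the filter. The 4 members Sema3g, Efnb3, Sema4a and Sema4f reached the filter through the group where they were higher, so for these the filter and the difference are linked. The calls of Sema3g, Efnb3 and Sema4f are counted among the 30 but are no support of their own.

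**Figure D1:**
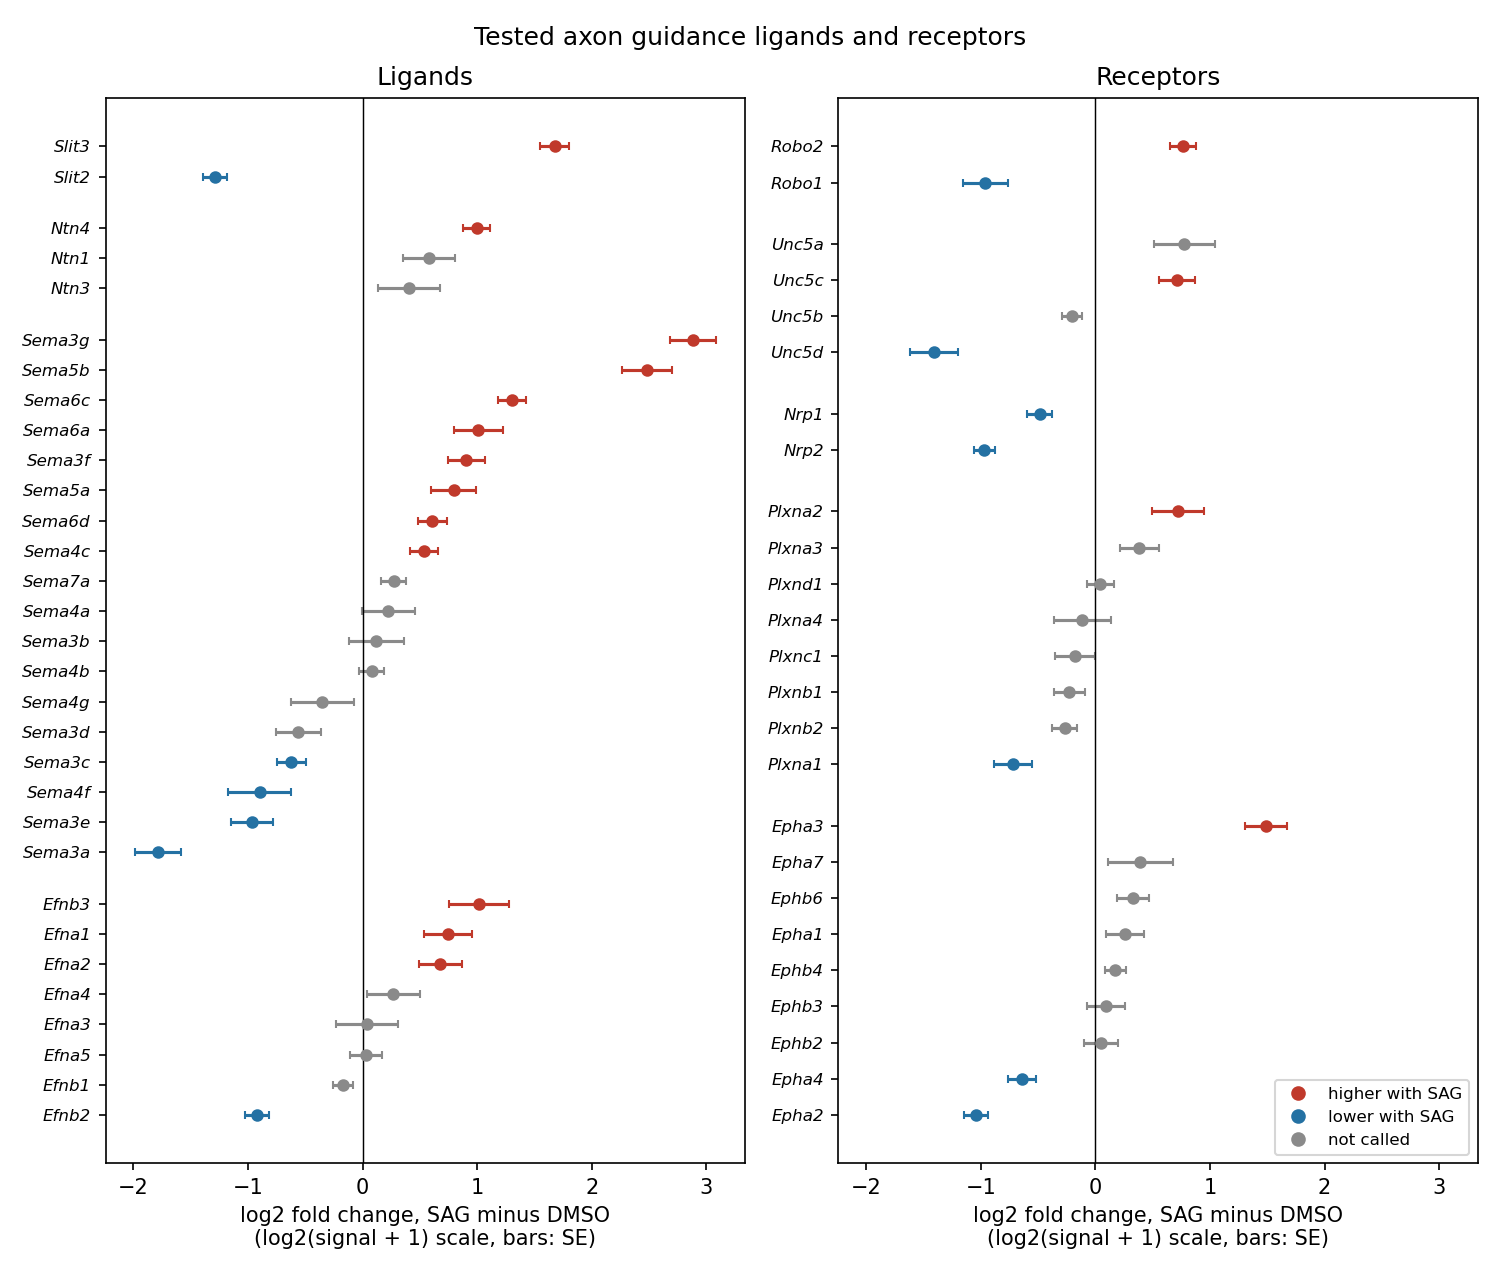
Difference in log2(signal + 1), SAG minus DMSO, of the 56 tested members, ligands on the left and receptors on the right, grouped by family; bars are SE over 3 libraries a group, and colours give the limma call. The 30 called members lie on both sides of 0 in every family except the netrins and neuropilins, from Sema3g at 2.88 to Sema3a at -1.79.

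The Slit ligands moved in opposite directions. Slit3 had a signal of 267, 332 and 243 in SAG, against 80.5, 93.6 and 85.9 in DMSO. Slit2 had 103, 101 and 84.6 in SAG, against 232, 238 and 238 in DMSO. Every SAG library lay above every DMSO library for Slit3 and below for Slit2. Slit3 rose 3.24-fold (log2 fold change 1.68, SE 0.13; limma, Benjamini-Hochberg adjusted p = 4.26e-05), and Slit2 was 2.45-fold lower (log2 fold change -1.29, SE 0.10; limma, Benjamini-Hochberg adjusted p = 5.17e-05). Per kilobase of transcript, Slit3 was 4.96, 6.27 and 5.48 times the level of Slit2 in the SAG libraries, and 0.661, 0.748 and 0.689 times in the DMSO libraries, so the order of the pair differed between the groups. The summed per-kilobase signal of Slit3 and Slit2 was 61.5, 73.7 and 55.1 in SAG and 38.7, 41.8 and 40.3 in DMSO. This sum depends on the transcript lengths used, 5228 bases for Slit3 and 9960 for Slit2. Slit1, the remaining Slit, had 1 to 4 reads in SAG and 0 to 4 in DMSO and was not tested.

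The Robo receptors for these ligands moved in opposite directions too. Robo2 had a signal of 114, 109 and 97.0 in SAG, against 60.9, 57.1 and 68.5 in DMSO. Robo1 had 33.4, 33.1 and 19.0 in SAG, against 55.1, 57.4 and 51.7 in DMSO. The groups overlapped for neither receptor, and SAG replicate 3 was the lowest library for Robo1. Robo2 rose 1.71-fold (log2 fold change 0.77, SE 0.11; limma, Benjamini-Hochberg adjusted p = 0.00126) and Robo1 was 1.92-fold lower (log2 fold change -0.96, SE 0.20; limma, Benjamini-Hochberg adjusted p = 0.00654). The calls of Slit3, Slit2, Robo2 and Robo1 held in each of the alternatives tried at the 0.05 threshold. Per kilobase, Robo2 stood at 4.31, 4.15 and 6.44 times Robo1 in SAG and at 1.40, 1.26 and 1.67 times in DMSO. These ratios depend on the transcript lengths used, 5988 bases for Robo2 and 7563 for Robo1. Robo1 (chromosome 16, 72308306 to 73046095, plus strand) and Robo2 (73891839 to 74411825, minus strand) are neighbours on GRCm38. Robo3 and the endothelial Robo4 stayed under a mean signal of 1, with at most 12 and 9 reads in a library.

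**Figure D2:**
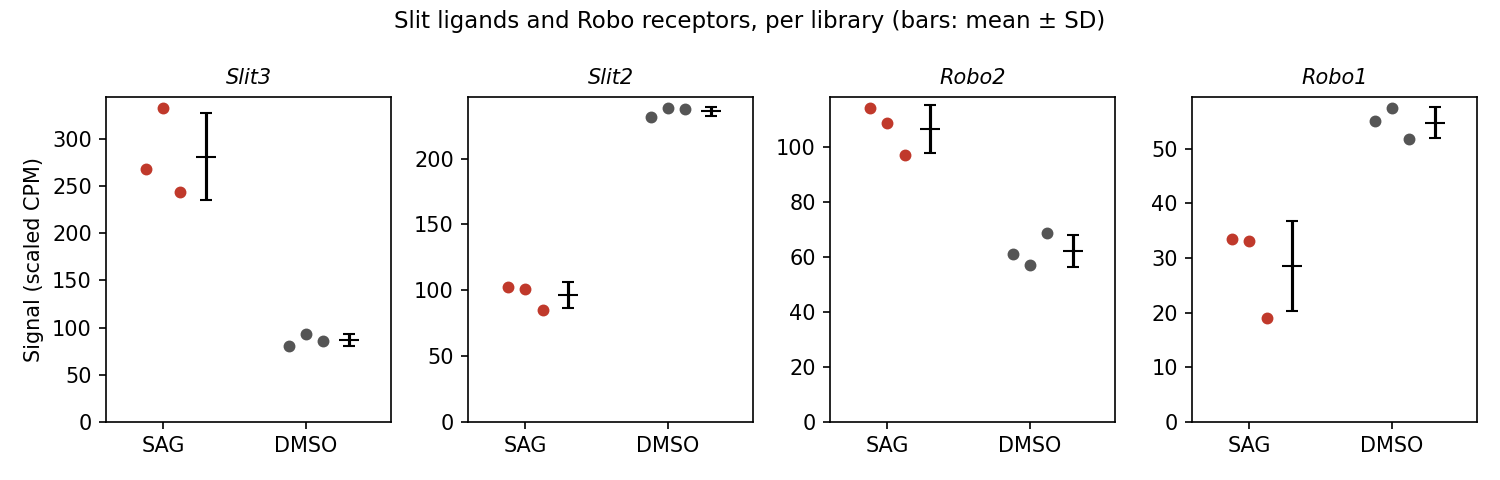
Signal (scaled CPM) of Slit3, Slit2, Robo2 and Robo1 in each library, SAG left of DMSO; points are libraries, and bars are mean ± SD (n = 3). Slit3 and Robo2 are higher in every SAG library than in any DMSO library, and Slit2 and Robo1 are lower.

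The promoters of the Slit pair are shown because these paralogs changed in opposite directions, and those of Sema3g, Sema5b and Sema3a because they had the largest increases and the largest decrease among members on the log2(signal + 1) scale. As a ratio of means the low gene Sema4f fell further than Sema3a. Each stretch is the 250 bases upstream of the RefSeq start (build GRCm38.p6, written 5′ to 3′ on the gene's strand, plus in each case), and capitals mark CG dinucleotides, the usual sites of DNA methylation in mammals. The positions are chr11:35121206-35121455 for Slit3, chr5:47982905-47983154 for Slit2, chr14:31217623-31217872 for Sema3g, chr16:35541112-35541361 for Sema5b and chr5:13396534-13396783 for Sema3a. The RefSeq start of Sema3a lies inside the gene, 271.37 kb downstream of the gene start in GENCODE, so its stretch belongs to an internal start. The other 4 starts lie downstream of the GENCODE gene start by 232 bases (Slit3), 217 (Sema5b), 17 (Slit2) and 13 (Sema3g). Most of the Slit3 and Sema5b stretches therefore lies inside the gene as annotated by GENCODE.
Slit3: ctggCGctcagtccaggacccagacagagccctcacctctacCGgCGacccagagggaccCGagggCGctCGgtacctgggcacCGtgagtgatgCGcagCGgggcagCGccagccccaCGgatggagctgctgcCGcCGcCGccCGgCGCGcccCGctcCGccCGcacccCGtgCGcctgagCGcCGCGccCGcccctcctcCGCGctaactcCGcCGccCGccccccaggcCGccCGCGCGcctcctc
Slit2: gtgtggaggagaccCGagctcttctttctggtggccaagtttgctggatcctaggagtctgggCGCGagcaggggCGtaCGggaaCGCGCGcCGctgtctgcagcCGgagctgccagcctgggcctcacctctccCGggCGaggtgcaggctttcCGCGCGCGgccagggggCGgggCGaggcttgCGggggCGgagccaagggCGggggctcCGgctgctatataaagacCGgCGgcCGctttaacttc
Sema3g: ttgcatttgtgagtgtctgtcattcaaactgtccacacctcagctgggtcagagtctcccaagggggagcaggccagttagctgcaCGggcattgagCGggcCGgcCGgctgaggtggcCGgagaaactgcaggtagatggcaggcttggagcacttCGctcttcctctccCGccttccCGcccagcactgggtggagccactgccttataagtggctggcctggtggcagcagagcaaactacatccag
Sema5b: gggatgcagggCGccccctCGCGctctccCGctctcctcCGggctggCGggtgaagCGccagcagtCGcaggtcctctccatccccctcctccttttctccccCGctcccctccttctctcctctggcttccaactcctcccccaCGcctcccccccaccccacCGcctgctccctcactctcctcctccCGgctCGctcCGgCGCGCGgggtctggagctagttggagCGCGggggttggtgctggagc
Sema3a: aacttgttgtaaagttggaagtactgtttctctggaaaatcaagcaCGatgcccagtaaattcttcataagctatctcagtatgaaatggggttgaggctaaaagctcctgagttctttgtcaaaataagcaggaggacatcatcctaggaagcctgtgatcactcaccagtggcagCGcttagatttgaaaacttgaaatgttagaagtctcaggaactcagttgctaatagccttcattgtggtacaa
The Slit3 stretch holds 35 CG dinucleotides and is 78.8% G and C, and that of Slit2 holds 25 and is 69.6% G and C. Sema5b has 19, Sema3g 8 and Sema3a 2 CG dinucleotides, with 72.0%, 60.4% and 40.8% G and C. Over all 32851 promoters in the table the median is 6 CG dinucleotides and 52.4% G and C. Promoters of the 14 matched members that rose had a median of 16 CG dinucleotides, those of the 11 matched members that fell 11, and those of the 23 matched members that were tested and not called 18. The letters ACCACCC, the core of the Gli binding consensus, were searched on both strands of the 300-base windows, which add the first 50 transcribed bases. They occurred for 0 of the 14 matched members that rose, 0 of the 11 that fell, 1 of the 23 not called (Unc5a) and 2 of the 11 not tested (Robo4 and Sema6b). That is 3 of 59 matched members (5.09%), beside 5.31% of the 27025 genes with a promoter.

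Class 3 semaphorins, the secreted group, split by gene. Sema3a, the classical repellent that acts through Nrp1, had a signal of 10.4, 8.37 and 5.78 in SAG, against 34.5, 25.8 and 30.5 in DMSO, with no overlap. It was 3.69-fold lower (log2 fold change -1.79, SE 0.20; limma, Benjamini-Hochberg adjusted p = 3.35e-04). Sema3e, which binds Plxnd1 without a neuropilin, had 5.27, 6.14 and 8.73 in SAG and 13.7, 14.0 and 13.8 in DMSO, and was 2.06-fold lower (limma, Benjamini-Hochberg adjusted p = 0.00449). Sema3c, which signals through both neuropilins, had 22.1, 26.5 and 21.8 in SAG and 33.96, 36.2 and 39.5 in DMSO. It was 1.56-fold lower (limma, Benjamini-Hochberg adjusted p = 0.00639). All 3 genes lay lower in each SAG library than in any DMSO library.

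These 3 genes lie with Sema3d on chromosome 5 of GRCm38, each on the plus strand: Sema3d at 12383385 to 12588948, Sema3a at 13125414 to 13602565, Sema3e at 14025276 to 14256689 and Sema3c at 17574281 to 17730268. Sema3d had a signal of 11.8, 7.84 and 13.7 in SAG and 17.97, 14.7 and 16.9 in DMSO, and was not called (log2 fold change -0.56, SE 0.20; limma, Benjamini-Hochberg adjusted p = 0.0576). It passed without SAG replicate 3 (limma, Benjamini-Hochberg adjusted p = 8.36e-04). Of the class 3 genes on other chromosomes none was called lower. The part of the shared chromosome in these changes was not tested. Sema3f, a ligand of Nrp2, had 11.8, 13.0 and 13.4 in SAG, against 5.51, 6.19 and 7.33 in DMSO, and rose 2.004-fold (log2 fold change 0.91, SE 0.16; limma, Benjamini-Hochberg adjusted p = 0.0030). Its neighbour on chromosome 9, Sema3b, had 2.53, 4.87 and 4.75 in SAG and 3.69, 3.004 and 3.95 in DMSO and was not called (limma, Benjamini-Hochberg adjusted p = 0.735).

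Sema3g had the largest fold change of all members. This class 3 semaphorin, a ligand of Nrp2 known from endothelial cells, had a signal of 7.47, 7.73 and 8.35 in SAG, against 0.0828, 0.370 and 0.169 in DMSO. The reads behind these values numbered 206 over the SAG libraries and 13 over the DMSO libraries. Sema3g reached the filter through the SAG group, so its call below is no support of its own. The ratio of pooled read rates was 38.2 (95% exact interval 21.9 to 73.0, which covers counting error only), and the fitted log2 fold change was 2.88 (SE 0.20; limma, Benjamini-Hochberg adjusted p = 2.75e-05). The ratio of means was 37.9 with all libraries, 29.1 without DMSO replicate 1 and 62.3 without DMSO replicate 2. Sema3g lies on chromosome 14 at 31217860 to 31230352. Among 5 endothelial markers (Pecam1, Cdh5, Tie1, Kdr and Emcn) none was called, and their summed signal was 49.4, 48.3 and 34.6 in SAG and 31.1, 34.3 and 37.5 in DMSO. Cdh5, which gave most of that sum, had 43.8, 43.6 and 28.3 in SAG and 25.1, 26.9 and 31.2 in DMSO, and was called higher with scaling to library totals, in DESeq2 and without SAG replicate 3. Emcn, lower in SAG, was called in limma without the trend. Pecam1 and Tie1 stayed at or below 0.642 in every library. The part of endothelial cells in the Sema3g result was not tested.

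Among membrane-bound semaphorins more genes rose than fell. Of the 11 tested in classes 4 to 7, 6 rose and 1 fell, and the median log2 fold change was 0.53. Over all genes tested 12.9% rose and 16.6% fell. The 1 that fell, Sema4f, is linked to the filter. Without DMSO replicate 1, and likewise at an adjusted p under 0.01, 4 rose and 0 fell. All 5 tested members of classes 5 and 6 rose, and 4 of them in either of these settings. Sema5b, a transmembrane semaphorin with thrombospondin repeats, had a signal of 22.6, 31.8 and 24.1 in SAG and 3.77, 2.73 and 5.30 in DMSO, and rose 6.66-fold (log2 fold change 2.48, SE 0.22; limma, Benjamini-Hochberg adjusted p = 8.37e-05). Its paralog Sema5a had 55.3, 57.1 and 35.5 in SAG and 23.9, 33.4 and 25.7 in DMSO, with SAG replicate 3 closest to the DMSO range. Sema5a rose 1.78-fold (limma, Benjamini-Hochberg adjusted p = 0.0150). Its call was lost without SAG replicate 1 (adjusted p = 0.0570), SAG replicate 2 (0.0509), DMSO replicate 1 (0.0730) or DMSO replicate 3 (0.0653).

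Class 6 semaphorins bind A-type plexins. Sema6c had a signal of 30.2, 32.9 and 30.4 in SAG, against 11.7, 12.2 and 12.2 in DMSO, and rose 2.59-fold (log2 fold change 1.30, SE 0.12; limma, Benjamini-Hochberg adjusted p = 1.03e-04). Sema6a, a ligand of Plxna2 and Plxna4, had 15.9, 9.75 and 8.99 in SAG and 4.89, 5.22 and 5.08 in DMSO. It rose 2.28-fold (limma, Benjamini-Hochberg adjusted p = 0.00711), with SAG replicate 1 well above the other SAG libraries. Sema6d, a ligand of Plxna1, had 50.4, 51.4 and 40.3 in SAG and 30.3, 31.8 and 29.7 in DMSO, a rise of 1.55-fold (limma, Benjamini-Hochberg adjusted p = 0.00674). For each of these genes the groups did not overlap, and each call held with every library left out in turn. Sema6b had 3 to 10 reads in SAG and 1 to 10 in DMSO and was not tested.

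In class 4, Sema4c, a ligand of Plxnb2, rose and Sema4f fell. Sema4c had a signal of 34.2, 38.1 and 41.6 in SAG and 24.5, 27.2 and 25.9 in DMSO, and rose 1.47-fold (limma, Benjamini-Hochberg adjusted p = 0.0101, or 0.0590 on leaving out DMSO replicate 1). Sema4f, at 0.330, 0.424 and 0.514 in SAG and 2.65, 1.063 and 1.47 in DMSO, was 4.09-fold lower (limma, Benjamini-Hochberg adjusted p = 0.0339). That call was lost without SAG replicate 1 (adjusted p = 0.0741) or SAG replicate 2 (0.0673), and without DMSO replicate 1 or 3 the gene was under the filter. Sema4b, the semaphorin with the highest signal per kilobase, had 64.9, 78.3 and 71.2 in SAG and 68.0, 62.7 and 71.9 in DMSO and was not called (log2 fold change 0.08, SE 0.11; limma, Benjamini-Hochberg adjusted p = 0.633). Sema4a, Sema4g and Sema7a, the lipid-anchored class 7 member, were not called either (limma, Benjamini-Hochberg adjusted p = 0.496, 0.358 and 0.0865). Sema7a, at 40.9 ± 1.39 in SAG and 33.8 ± 1.75 in DMSO, passed with scaling to library totals (adjusted p = 0.0198) and in DESeq2 (0.0487). Sema4d, a ligand of Plxnb1, was under the filter, with 2, 16 and 3 reads in SAG and 28, 20 and 14 in DMSO.

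**Figure D3:**
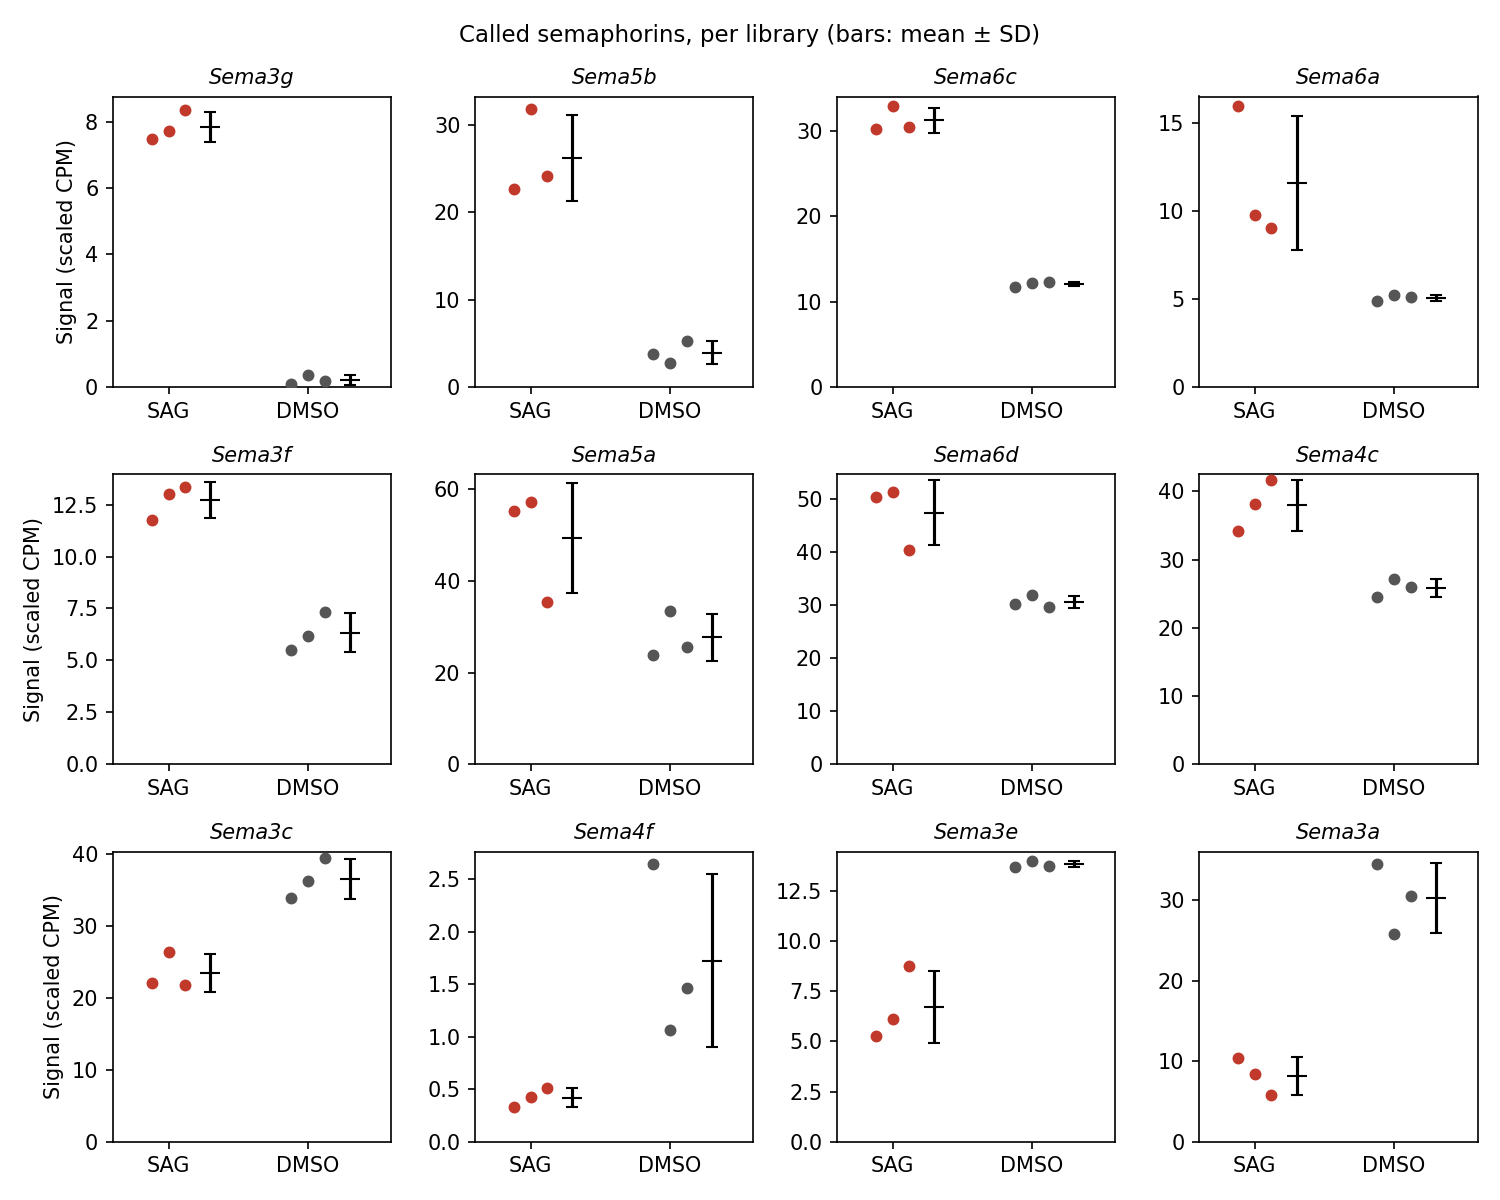
Signal (scaled CPM, linear axes from 0) of the 12 called semaphorins in each library, SAG left of DMSO, ordered by log2 fold change; points are libraries, and bars are mean ± SD (n = 3). The first 8 panels are higher with SAG and the last 4, Sema3c, Sema4f, Sema3e and Sema3a, are lower.

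Both neuropilins, the co-receptors of class 3 semaphorins, fell. Nrp2 had a signal of 156, 143 and 139 in SAG, against 288, 284 and 287 in DMSO, and was 1.96-fold lower (log2 fold change -0.97, SE 0.09; limma, Benjamini-Hochberg adjusted p = 1.20e-04). Nrp1 had 159.8, 132 and 144 in SAG, against 191, 198 and 223 in DMSO, and was 1.40-fold lower (log2 fold change -0.48, SE 0.11; limma, Benjamini-Hochberg adjusted p = 0.00976). The libraries of the groups did not overlap for either gene. The call of Nrp1 was lost without DMSO replicate 3 (adjusted p = 0.0668). Per kilobase Nrp1 averaged 40.5 ± 3.8 in SAG and 56.7 ± 4.7 in DMSO, above Nrp2 at 22.9 ± 1.4 in SAG and 45.0 ± 0.31 in DMSO. This order depends on the transcript lengths used, 3597 bases for Nrp1 and 6357 for Nrp2. Before division by length, Nrp2 was above Nrp1 in each DMSO library.

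Among 8 tested plexins, the signalling receptors for semaphorins, 1 rose and 1 fell. That is 25% called, beside 29.6% of all genes tested. Plxna1 had a signal of 373, 409.6 and 252 in SAG and 568, 547 and 554 in DMSO, and was 1.61-fold lower (log2 fold change -0.72, SE 0.16; limma, Benjamini-Hochberg adjusted p = 0.0101). SAG replicate 3 was the lowest library for Plxna1. Plxna2 had 19.9, 23.6 and 12.6 in SAG and 8.70, 12.6 and 10.9 in DMSO. The lowest SAG value of Plxna2 lay just above the highest DMSO value. It rose 1.74-fold (limma, Benjamini-Hochberg adjusted p = 0.0403), a call lost without any 1 library other than SAG replicate 3 (adjusted p from 0.0631 to 0.152). The Plxna2 call likewise ended with no filter on low genes (adjusted p = 0.0777) and without the trend in the variance (0.0560). Plxnb2, the plexin with the highest signal per kilobase, had 429, 515 and 395 in SAG and 537, 543 and 524 in DMSO and was not called (log2 fold change -0.27, SE 0.11; limma, Benjamini-Hochberg adjusted p = 0.0983). It passed without SAG replicate 2 (adjusted p = 0.0190) or SAG replicate 3 (0.0324). Plxnd1, the receptor of Sema3e, had 80.7, 83.8 and 66.7 in SAG and 79.8, 72.4 and 71.2 in DMSO (log2 fold change 0.04, SE 0.12; limma, Benjamini-Hochberg adjusted p = 0.808). Plxna3, a partner of Sema3f, had 23.7, 32.7 and 21.96 in SAG and 21.9, 20.2 and 16.7 in DMSO, and Plxna4, a partner of Sema3a, 4.72, 4.03 and 2.44 in SAG and 3.56, 5.36 and 3.33 in DMSO. Plxna3, Plxna4, Plxnb1 and Plxnc1 were not called (limma, Benjamini-Hochberg adjusted p = 0.122, 0.758, 0.227 and 0.481), and Plxnb3 had 0 to 2 reads in a library. Plxna3 passed without SAG replicate 3 (adjusted p = 0.00612) and Plxnb1 without SAG replicate 2 (0.0270).

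The A-type Eph receptors changed by gene and the B-type did not pass the test. Of the 9 Eph genes tested 33.3% were called, near the 29.6% of all genes tested. Epha3 had a signal of 38.01, 41.4 and 25.7 in SAG, against 11.1, 10.9 and 12.9 in DMSO, and rose 3.01-fold (log2 fold change 1.49, SE 0.18; limma, Benjamini-Hochberg adjusted p = 5.07e-04). Epha2 had 76.6, 72.4 and 68.3 in SAG, against 161, 135 and 155 in DMSO, and was 2.08-fold lower (log2 fold change -1.04, SE 0.11; limma, Benjamini-Hochberg adjusted p = 1.86e-04). Epha4, which binds both ephrin classes, had 14.8, 16.0 and 14.3 in SAG and 23.9, 23.4 and 24.6 in DMSO, and was 1.597-fold lower (limma, Benjamini-Hochberg adjusted p = 0.00446). For none of these receptors did the groups overlap, and all 3 calls held in each alternative at the 0.05 threshold. Ephb4, the receptor of ephrin B2 and the Eph gene with the highest signal per kilobase in SAG, had 132, 133 and 138 in SAG and 111, 123 and 123 in DMSO. It was not called (log2 fold change 0.18, SE 0.09; limma, Benjamini-Hochberg adjusted p = 0.189), although its groups did not overlap. Ephb2 averaged 50.8 ± 10.8 in SAG and 48.3 ± 2.45 in DMSO. Ephb3 had 14.2, 16.3 and 17.3 in SAG and 11.9, 16.1 and 17.1 in DMSO, and neither was called (limma, Benjamini-Hochberg adjusted p = 0.826 and 0.710). Ephb6, an Eph protein without kinase activity, had 9.67, 9.75 and 9.76 in SAG and 7.99, 7.49 and 7.16 in DMSO (limma, Benjamini-Hochberg adjusted p = 0.111). Ephb4 and Ephb6 passed with scaling to library totals (adjusted p = 0.0340 and 0.0390). Epha1 and Epha7 were not called (limma, Benjamini-Hochberg adjusted p = 0.263 and 0.327). Epha1 overlaps the abundant gene Zyx on the other strand, and the strand setting of the counting is not given in the sources used here. Ephb1, Epha6, Epha8 and Epha10 were under the filter, with at most 12 reads in a library, and Epha5 had 0 reads in all 6, where 3 reads would be a signal of 0.124 to 0.385.

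Among the 8 ephrins, all of which were tested, 3 rose and 1 fell. That is 37.5% and 12.5%, beside 12.9% and 16.6% of all genes tested. The number of ephrins that rose was 0 without SAG replicate 2 and 1 without any single DMSO replicate. Efnb2, ephrin B2, known as a marker of arteries, had a signal of 109.7, 94.6 and 92.7 in SAG, against 195, 176 and 192 in DMSO. It was 1.89-fold lower (log2 fold change -0.92, SE 0.10; limma, Benjamini-Hochberg adjusted p = 3.45e-04), and no SAG library reached the DMSO range. Efnb1, the ephrin with the highest signal per kilobase, had 178, 183 and 185 in SAG and 208, 199.9 and 205 in DMSO and was not called (log2 fold change -0.17, SE 0.09; limma, Benjamini-Hochberg adjusted p = 0.174, or 0.0357 on leaving out SAG replicate 3). Efnb3 had 1.10, 2.33 and 1.93 in SAG, against 0.207, 0.370 and 0.508 in DMSO (10, 22 and 15 reads, against 5, 8 and 9), and rose 4.94-fold (limma, Benjamini-Hochberg adjusted p = 0.0179). That call was lost without DMSO replicate 1 (adjusted p = 0.0801) or DMSO replicate 2 (0.0612), and the gene was under the filter without SAG replicate 2 or 3.

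The ephrin A genes that rose are ligands of EphA receptors. Efna1, a high-affinity ligand of Epha2, had a signal of 3.41, 4.56 and 3.60 in SAG and 1.57, 2.40 and 1.75 in DMSO, and rose 2.02-fold (limma, Benjamini-Hochberg adjusted p = 0.0255). Efna2 had 10.5, 13.1 and 10.7 in SAG and 8.12, 5.18 and 7.28 in DMSO, and rose 1.67-fold (limma, Benjamini-Hochberg adjusted p = 0.0240). The groups did not overlap for either, yet single libraries ended both calls. Efna1 was not called without SAG replicate 2 (adjusted p = 0.0729), DMSO replicate 1 (0.108) or DMSO replicate 3 (0.0960), and Efna2 not without SAG replicate 2 (0.0715), DMSO replicate 2 (0.104) or DMSO replicate 3 (0.0645), nor with no filter on low genes (0.0522). Efna5, a ligand of Epha3 and Epha4, had 31.2, 27.8 and 34.6 in SAG and 31.3, 25.9 and 34.6 in DMSO (log2 fold change 0.03, SE 0.14; limma, Benjamini-Hochberg adjusted p = 0.899). Efna3 and Efna4 were not called (limma, Benjamini-Hochberg adjusted p = 0.925 and 0.405). Efna4 had 16.4 in SAG replicate 3, against 9.01 and 8.79 in the other SAG libraries and 9.32, 7.90 and 9.64 in DMSO.

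**Figure D4:**
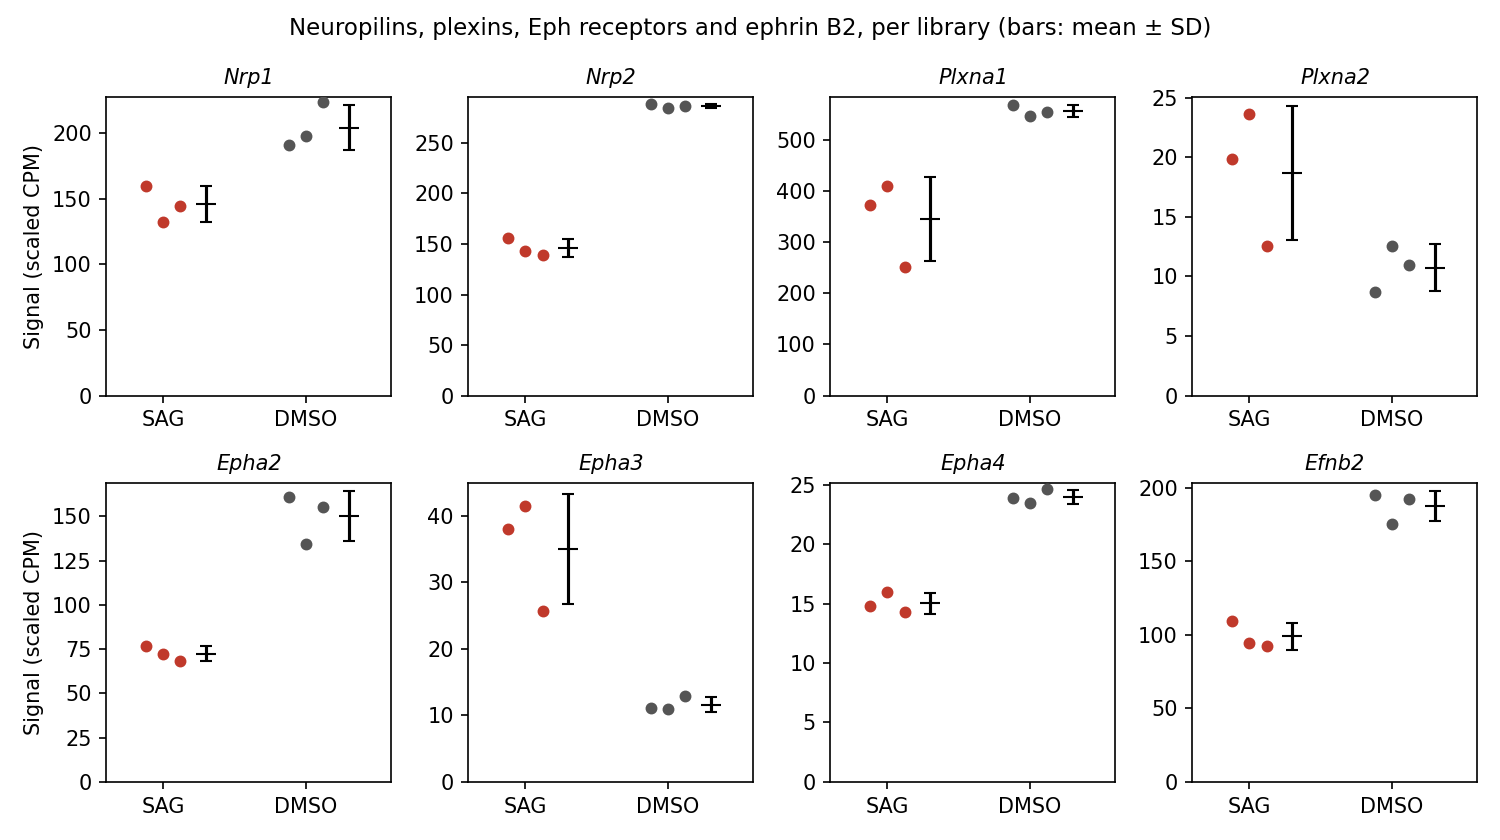
Signal (scaled CPM, linear axes from 0) of Nrp1, Nrp2, Plxna1, Plxna2, Epha2, Epha3, Epha4 and Efnb2 in each library, SAG left of DMSO; points are libraries, and bars are mean ± SD (n = 3). Plxna2 and Epha3 are higher with SAG and the other 6 are lower, with no overlap of the groups.

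Of the netrins, secreted relatives of laminin, Ntn4 rose. Its signal was 36.5, 40.2 and 34.2 in SAG, against 18.3, 17.7 and 17.9 in DMSO, a rise of 2.05-fold with no overlap (log2 fold change 1.00, SE 0.12; limma, Benjamini-Hochberg adjusted p = 4.12e-04). Netrin 4 binds laminin in basement membranes and is not a classical Unc5 ligand. Ntn1 had 5.05, 5.83 and 4.11 in SAG and 2.40, 2.54 and 4.29 in DMSO and was not called (limma, Benjamini-Hochberg adjusted p = 0.0846, or 0.0171 on leaving out SAG replicate 3). Ntn3, at 11.5 ± 5.51 in SAG and 7.97 ± 1.28 in DMSO, was not called (limma, Benjamini-Hochberg adjusted p = 0.288). It overlaps Tbc1d24 on its own strand, so its reads are uncertain. Ntn5 had 3 reads in DMSO replicate 2 and 0 in the other libraries.

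The Unc5 receptors, which mediate repulsion by netrin 1, diverged. Unc5b had the highest signal per kilobase of all 68 genes, at 123 ± 2.9 in SAG and 142 ± 3.5 in DMSO. Its signal was 704, 734 and 733 in SAG and 857, 833 and 816 in DMSO, without overlap, and it was not called (log2 fold change -0.21, SE 0.09; limma, Benjamini-Hochberg adjusted p = 0.102, or 0.00493 on leaving out SAG replicate 3). Unc5c had 11.9, 14.4 and 12.3 in SAG and 6.46, 8.32 and 7.61 in DMSO, and rose 1.72-fold (limma, Benjamini-Hochberg adjusted p = 0.00892, or 0.0506 on leaving out DMSO replicate 1). Unc5d had 2.31, 1.38 and 1.41 in SAG, against 5.22, 6.56 and 6.54 in DMSO, and was 3.60-fold lower (log2 fold change -1.41, SE 0.21; limma, Benjamini-Hochberg adjusted p = 0.00135). The groups overlapped for neither Unc5c nor Unc5d. Unc5a, at 3.08, 4.45 and 1.80 in SAG and 1.24, 1.29 and 1.41 in DMSO, just missed the threshold (limma, Benjamini-Hochberg adjusted p = 0.0526). It passed without SAG replicate 3 (limma, Benjamini-Hochberg adjusted p = 0.00155) and in the count test of edgeR (quasi-likelihood, Benjamini-Hochberg adjusted p = 0.0302).

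Paired by textbook binding partners, 44 ligand-receptor combinations were listed, and both genes were tested in 38. Combinations share genes and are not independent, so they are given as counts. The counts also depend on which partners were listed. Efna1 was paired with Epha2 alone and Efna2 with Epha3 alone. Sema5b and Sema6c, both called higher, were in no pair, and Sema5a was paired only with Plxnb3, which was not tested. Both genes rose in 3 pairs (Slit3 with Robo2, Sema6a with Plxna2 and Efna2 with Epha3) and both fell in 6 (Slit2 with Robo1, Sema3a with Nrp1, Sema3a with Plxna1, Sema3c with Nrp1, Sema3c with Nrp2, and Efnb2 with Epha4). The ligand and the receptor were called in opposite directions in 7 pairs. In 6 of these the ligand rose and the receptor fell: Slit3 with Robo1, Sema3f with Nrp2, Sema3g with Nrp2, Sema6d with Plxna1, Efna1 with Epha2 and Efnb3 with Epha4. Slit2 with Robo2 was the pair with the lower ligand. The count of pairs that rose together was 1 without SAG replicate 2, DMSO replicate 2 or DMSO replicate 3, where Slit3 with Robo2 stayed, and 6 without SAG replicate 3. Without DMSO replicate 3, 4 pairs fell together. Opposite calls numbered 5 without DMSO replicate 1, 9 without SAG replicate 3 and 4 at an adjusted p under 0.01. The ligand was the higher gene in 4, 8 and 3 of these, in that order. Raising the filter on low genes from 1 to 5 left 4 opposite pairs, 3 with the higher ligand. Sema3g, Efna1 and Efnb3 were then not tested. The calls of Sema3g and Efnb3 are linked to the filter, so their pairs are no support of their own. In 15 pairs 1 gene was called, as in Efnb2 (log2 fold change -0.92) with Ephb4 (0.18) and Sema3e (-0.97) with Plxnd1 (0.04), and in 7 neither was. By the form of the ligand, 4 of 12 tested secreted ligands rose and 4 fell, and 9 of 19 tested membrane-bound ligands rose and 2 fell. Over all genes tested 12.9% rose and 16.6% fell. Of the membrane-bound ligands 5 rose and 1 fell without SAG replicate 2, and likewise without DMSO replicate 1.

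**Figure D5:**
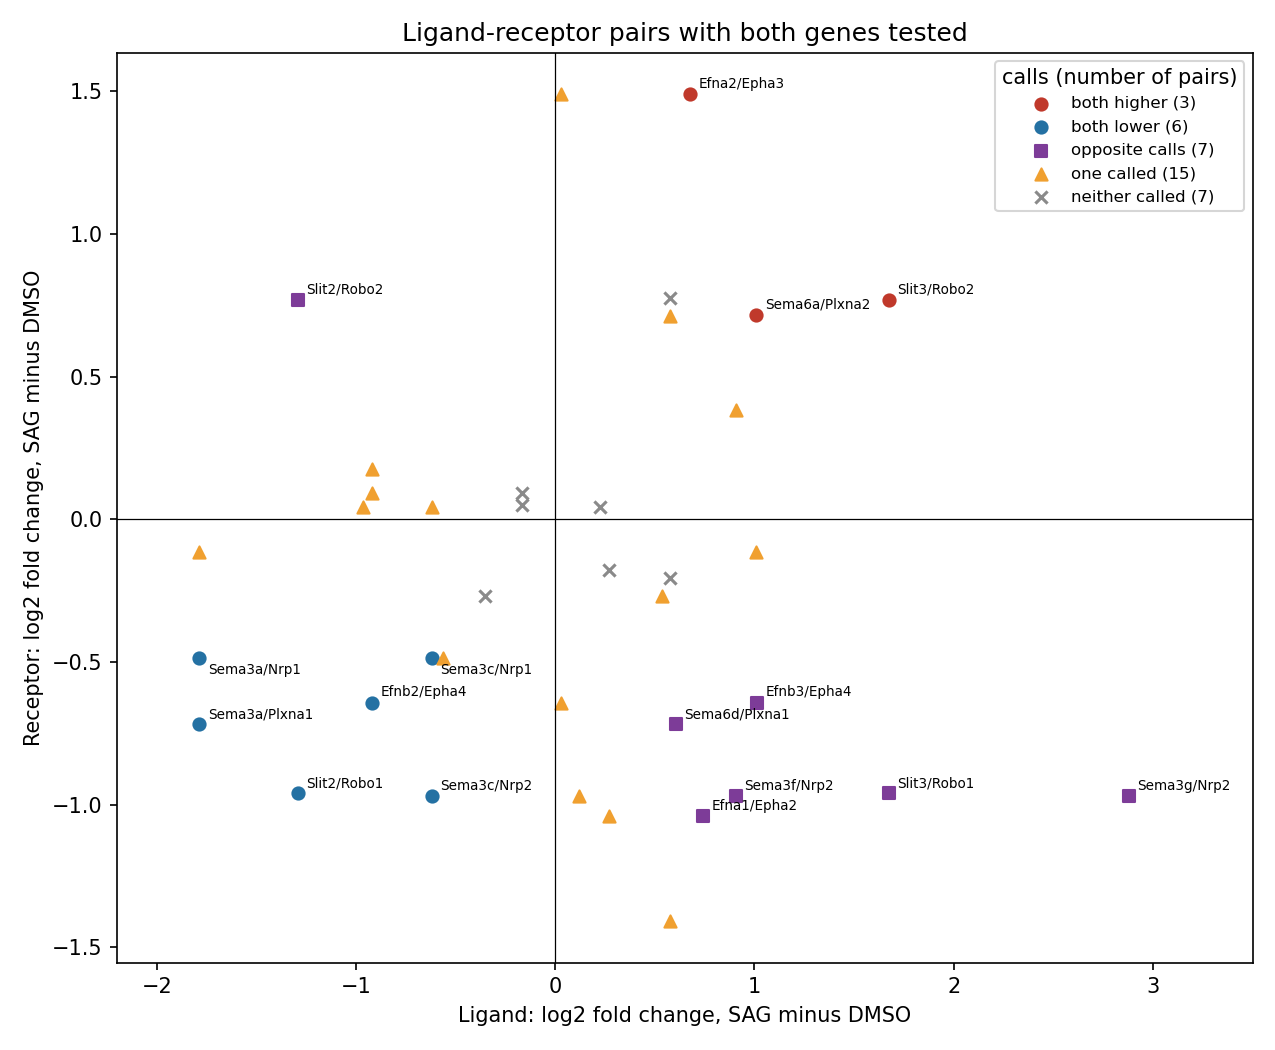
Log2 fold change (SAG minus DMSO) of the ligand on the horizontal axis and of the receptor on the vertical axis for the 38 pairs with both genes tested; each point is a pair, marked by the calls of its genes. Pairs in which both genes were called stand in each quadrant, 3 higher together, 6 lower together and 7 in opposite directions.

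Genes that act with these receptors were given by a list of 120 co-receptors, other ligands and cytoplasmic effectors, of which 104 were tested. Of these 11 rose and 31 fell, with a median log2 fold change of -0.17. That is 40.4% called, 10.6% higher and 29.8% lower, beside 29.6%, 12.9% and 16.6% of all genes tested. The 28 tested semaphorin effectors included 1 that rose and 13 that fell, the 29 Slit and netrin effectors 5 and 10, the 22 Eph and ephrin effectors 4 and 3, the 16 co-receptors 1 and 2, and the 9 other ligands 0 and 3. The shares called were 50%, 51.7%, 31.8%, 18.8% and 33.3% in that order, the last 3 near or under the share of all genes. The semaphorin effectors that fell numbered 7 or 8, and the Slit and netrin effectors that fell 3 to 5, without any single DMSO replicate. Scaling by library total gave 17 higher and 20 lower over the whole list. On leaving out DMSO replicate 1, 5 rose and 20 fell; for DMSO replicate 2 this was 7 and 17, for DMSO replicate 3 it was 6 and 16, and for SAG replicate 3 it was 16 and 42.

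Of the 10 called genes of the list with the smallest p, 6 fell and 4 rose. Rock1, a RhoA-activated kinase, had a signal of 59.5, 49.3 and 58.2 in SAG and 90.7, 95.5 and 99.1 in DMSO (limma, Benjamini-Hochberg adjusted p = 0.00113). Its paralog Rock2 had 264, 269 and 234 in SAG and 402, 382 and 422 in DMSO (limma, Benjamini-Hochberg adjusted p = 0.00132). Dpysl3, a collapsin response mediator of semaphorin signalling, had 762, 738 and 752 in SAG and 1103, 1162 and 1032 in DMSO (limma, Benjamini-Hochberg adjusted p = 0.00252). No SAG library reached the DMSO range for these genes. The same held for Adam10, a protease that sheds ephrins, with 134, 129.9 and 106 in SAG and 228, 229 and 221 in DMSO (limma, Benjamini-Hochberg adjusted p = 5.56e-04). Flrt2, a ligand of Unc5 receptors, had 12.4, 15.9 and 15.4 in SAG, against 64.3, 63.2 and 63.5 in DMSO, and was 4.37-fold lower (limma, Benjamini-Hochberg adjusted p = 2.08e-05). Wnt5a, a guidance cue of the Wnt family, had 72.4, 83.9 and 76.3 in SAG and 142, 138 and 142 in DMSO (limma, Benjamini-Hochberg adjusted p = 3.50e-04).

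Among genes of the list that rose, Dapk1, a death-associated kinase that binds Unc5 proteins, had 77.1, 98.8 and 87.1 in SAG and 39.8, 36.0 and 41.3 in DMSO (limma, Benjamini-Hochberg adjusted p = 2.39e-04). Ngef, the exchange factor ephexin that acts below EphA receptors, had 8.35, 10.3 and 8.99 in SAG and 3.77, 2.77 and 2.59 in DMSO (limma, Benjamini-Hochberg adjusted p = 8.59e-04). Rgs3, which links ephrin B to G proteins, had 57.8, 57.0 and 35.6 in SAG and 20.7, 19.4 and 19.9 in DMSO (limma, Benjamini-Hochberg adjusted p = 0.00116). The groups did not overlap for any of these. Trim9, a ubiquitin ligase that binds Dcc, had 23, 32 and 32 reads in SAG and 0, 2 and 0 in DMSO. It reached the filter only through the SAG group, so for Trim9 too the filter and the difference are linked, and its call is no support of its own.

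Markers of other cell types were measured beside these genes. Peritubular myoid and vascular smooth muscle markers (Acta2, Myh11, Cnn1, Actg2 and Rgs5) summed to 8643 to 10095 in SAG and 14436 to 15170.2 in DMSO, with 4 of 5 lower and none higher. The Myh11 call was lost in 7 alternatives, among them those without any single DMSO replicate, and the Acta2 call with no filter on low genes. Of the interstitial markers, Pdgfra ran from 210.4 to 227 in SAG and from 32.2 to 36.9 in DMSO, Tcf21 from 215 to 269.9 in SAG and from 40.4 to 46.7 in DMSO, and Nr2f2 from 204 to 236 in SAG and from 143 to 157 in DMSO. These 3 were called higher, while Nr5a1 and the reporter EGFP were not called (limma, Benjamini-Hochberg adjusted p = 0.160 and 0.0961). EGFP was called higher with scaling to library totals and without SAG replicate 3. Nr5a1, whose groups did not overlap, was called lower without SAG replicate 3 (limma, Benjamini-Hochberg adjusted p = 0.0344). Fetal Leydig markers (Hsd3b1, Cyp11a1, Cyp17a1, Star and Insl3) summed to 23.0, 19.0 and 116 in SAG and 32.3, 33.1 and 33.3 in DMSO, so SAG replicate 3 alone lay above DMSO. Of these 5 Hsd3b1 was called higher, at 3.73, 2.01 and 30.8 in SAG and 0, 0.370 and 0.226 in DMSO. That call was lost without any single DMSO replicate, and with 4 in place of 1 added to the signal. Hsd3b1 reached the filter only through the SAG group, so its call is no support of its own. In bulk samples fewer cells of a type and less RNA per cell cannot be told apart, and the part of these marker differences in the results above was not tested. Of the neuronal markers Tubb3 was lower (74.2 to 85.8 in SAG and 111 to 123 in DMSO), Snap25 was at 0 in every library, and Elavl4 and Stmn2 stayed at or below 0.370. Schwann and glial markers summed to at most 2.33 and Sox10 was at 0. Germ cell, erythroid and macrophage markers summed to at most 3.30 in a library, and Sertoli markers to 36.1 to 38.9 in SAG and 40.7 to 45.7 in DMSO, with none called.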

How the data were processed

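RNA-seq was done on 3 SAG and 3 DMSO samples. The submitters' processing notes name GRCm38 (mm10) and, without order, edgeR (version written as 2.2.1), featureCounts 2.0.0, STAR and Trim Galore 0.6.4. Annotation, strand setting and filters are not given in the sources used here. Values were deposited by the authors as a scaled signal, named CPM in the file name, whose columns sum to 932712 to 1055620. In each column 100% of values were whole multiples of 1 step (tolerance 0.01), which gave back whole reads. The 92 spike-in rows, at most 0.0157% of a library's reads, were left out. Columns were matched to samples by treatment and replicate number.

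The test was limma 3.58.1 in R 4.3.3 on log2(signal + 1) (eBayes with trend, no covariates). The 12550 genes whose mean signal reached 1 were kept, and p-values were adjusted over all of them by Benjamini-Hochberg. This scale understates changes in low genes, and plain folds divide the group means. The step was run on simulated counts with few changed genes and the same dispersion in both groups. In these data many genes differed and the SAG libraries spread more, so that run cannot tell how reliable the calls here are. Levels per kilobase divide by the longest principal coding transcript of GENCODE M21, whose coordinates were used. Ratios and rankings per kilobase depend on this choice of length. Promoters came from RefSeq (GRCm38.p6), which matched 59 of 68 members. The count tests used edgeR 4.0.16 and DESeq2 1.42.0 on the recovered reads.

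Values per library are given for called members, for their tested binding partners and for the most abundant tested gene of each family, and for up to 10 called pathway genes with the smallest p. The members, pairs and lists were chosen with earlier results of these data known. One marker gene and the sum of its list are not reported here.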

Additional observations from a re-analysis of the deposited data

How the results depend on the processing

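None of the 30 called members changed sign in any of the 17 alternatives, and 21 were called in every alternative at the 0.05 threshold in which they were tested. The counts of members that rose and fell were 17 and 13; with each library left out in turn they ran from 11 to 19 and from 11 to 17. At an adjusted p under 0.01 they were 11 and 11. The count test of edgeR gave 18 and 13 and DESeq2 19 and 13. Over all genes 1625 rose and 2084 fell, 901 to 2463 and 1086 to 3373 with each library left out, 794 and 1043 at 0.01, and 2477 and 1259 with scaling by library total. That scaling moved the all-gene median from -0.03 to 0.10 (log2), and gave 21 higher and 13 lower members. Of the pathway list 11 rose and 31 fell: 17 and 20 with scaling by library total, 6 and 17 at 0.01, and 5 to 16 and 16 to 42 with each library left out. The causes were not tested.

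Signs turned for 8 of the 56 tested members, none of them called, with these ranges of the log2 fold change over the libraries left out in turn: Efna4 -0.0038 (without SAG replicate 3) to 0.41, Efna5 -0.082 (without DMSO replicate 2; -0.05 without SAG replicate 3) to 0.12, Efna3 -0.19 (without DMSO replicate 3; -0.10 without SAG replicate 3) to 0.24, Ephb2 -0.11 (without SAG replicate 2) to 0.16, Ephb3 -0.058 (without DMSO replicate 1) to 0.19, Plxna4 -0.27 to 0.10 (without SAG replicate 3; 0.06 without DMSO replicate 2), Plxnd1 -0.020 (without SAG replicate 2) to 0.14, and Sema3b -0.0077 (without SAG replicate 2) to 0.36.

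No pairing by replicate number was visible: deviations of same-numbered libraries correlated at -0.0231, 0.0332 and -0.0002. These correlations cannot exclude that same-numbered samples shared an animal or culture. A fit with a replicate block called 17 members higher and 14 lower, the added call being Sema3d (adjusted p = 0.0333). The 12 members under the filter had at most 28 reads in a library.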
